A study of Saccharomyces cerevisiae with 12 samples.

Results

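Internal transcribed spacer 2 (ITS2) is the stretch of the 35S ribosomal RNA gene that lies between the mature 5.8S and 25S rRNA sequences and is removed from the precursor. All of its positions were taken, 231 that carried reads and 1 that did not, out of the 6858 positions of the 35S gene, and none was chosen by its signal. Native elongating transcript sequencing (NET-seq) of RNA polymerase I (Pol I) maps the 3′ ends of RNA pulled down with the polymerase, so that each position carries the reads whose last nucleotide lay there. BMH-21, a small molecule that intercalates into GC-rich DNA and inhibits Pol I, was compared with its vehicle, a phosphate buffer, after 2 and 16 min, with 3 libraries in each of the 4 groups. All cultures were of one Saccharomyces cerevisiae strain with the mutant alleles ade2-1, can1-100, his3-11,15, leu2-3,112, trp1-1 and ura3-1. In that strain the second largest Pol I subunit bore an HA and histidine tag (RPA135-(HA)3-(His)7::TRP1mx6), and the largest came only from a plasmid (rpa190Δ::HIS3Mx6, pRS315-RPA190). The polymerase was pulled down on anti-HA beads. Cells growing at 30 °C received 50 μM BMH-21 or vehicle at an OD600 of 0.3 and were kept at that temperature for 1 or 15 more minutes before a harvest of about 1 min. The series' text calls the replicates biological. The paper describes the 16-min treatment as a repeat of the experiment, so that treatment time and experiment cannot be told apart. The paper also sequenced 1 sample of an untagged strain. It reports high signal there in the gene regions and few reads in the spacers, and relies on the spacers for nascent transcription. That untagged strain was not analysed here. In the libraries used, ends of nascent RNA and ends of processed rRNA carried along in the pull-down cannot be told apart.

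In yeast the precursor is cut inside ITS2 at site C2 by the endonuclease Las1, which separates 7S pre-rRNA, the precursor of 5.8S, from 26S pre-rRNA, the precursor of 25S. The exosome, with its nuclease Rrp6, trims 7S from its 3′ end through an intermediate that keeps about the first 30 nt of ITS2 and through 6S pre-rRNA, which keeps about 5 to 8 nt, and the exonuclease Rat1 trims 26S from its 5′ end. A read ending in ITS2 can therefore mark a polymerase in the spacer, a 3′ extended 5.8S rRNA or an RNA cut at C2.

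Positions are counted from +1, the first nucleotide after 5.8S. ITS2 lies at chrXII:464319-464550 on the minus strand of build R64 (gene ITS2-2 of the rDNA array, where the annotation lists 2 copies), and the bases of both data tables matched that reference at 6858 of 6858 positions. It was described in 5 parts, of 30, 99, 21, 52 and 30 nt from 5.8S to 25S. The sequences of the parts on which the results turn are shown as RNA, with capitals at each position whose median vehicle signal at 2 min was at least 100 RPM (reads scaled to an equal total over the 35S gene). ITS2 held 18 such positions.
5.8S-proximal part (+1 to +30, chrXII:464521-464550): cCUUCUCAaacauucuguuugguagugagu
5′ interior (99 nt from +31, chrXII:464422-464520): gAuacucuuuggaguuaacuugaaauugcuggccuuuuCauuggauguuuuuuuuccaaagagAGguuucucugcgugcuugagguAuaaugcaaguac
C2 area (+130 to +150, chrXII:464401-464421): gGucguuuUAgguuuuaccaa
3′ interior (52 nt after the C2 area, chrXII:464349-464400): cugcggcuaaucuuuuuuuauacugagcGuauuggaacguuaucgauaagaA
25S-proximal part (the last 30 nt, chrXII:464319-464348): gagagcgucuaggcgaacaAuguucuuaaa
Of the capitals, 7 form one run at +2 to +8, and the C2 area holds 3. U made up 37.1% of ITS2, 42.9% of the C2 area and 23.3% of the 25S-proximal part. The longest U runs are of 8 and 7 nt, at +78 to +85 and +163 to +169, and no position of either run carries a capital.

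The libraries held 1054374 to 10480384 reads on the 35S gene, of which 1977 to 84419 ended in ITS2. The shallowest over ITS2 was BMH-21 replicate 3 at 16 min, where the 25S-proximal part rested on 94 reads (0.00892% of the 35S signal, 95% Clopper-Pearson interval 0.00720 to 0.0109%, counting error only). Position +1 had no read in any of the 12 libraries, which allows up to 0.286 to 2.85 RPM per library. It was 1 of 10 such positions in the gene. ITS2 as a whole held 1.118 ± 0.116% of the 35S signal in vehicle and 0.713 ± 0.236% with BMH-21 at 2 min, and 0.823 ± 0.074% and 0.157 ± 0.031% at 16 min (SD, n = 3). The groups did not overlap at either time, with log2 differences of -0.69 ± 0.29 and -2.40 ± 0.19 (SE) and of -1.55 over both times (exact permutation test within time, two-sided, p = 0.005, the smallest possible, adjusted p = 0.00667 over 8 parts). RPM and percent of the 35S signal are shares, so that a lower share in the spacer and a higher one elsewhere cannot be told apart, nor can fewer polymerases per cell from fewer recovered complexes. Scaling by the sum of the 4 spacers instead moved the median change over all positions from -0.26 to +1.03 on the log2 scale at 2 min and from -0.06 to +2.42 at 16 min, and on that scale ITS2 as a whole was higher with BMH-21 by 0.62 and 0.10. Ratios between regions of one library do not depend on the scaling.

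In vehicle the signal over ITS2 was uneven and its pattern was much the same at both times. The 10 highest positions of the vehicle median at 2 min were the 10 highest at 16 min. The 7 positions from +2 to +8 held 34.6 ± 2.2% (SD, n = 3) of the ITS2 signal at 2 min and 41.5 ± 4.4% at 16 min. Position +139, an A in the C2 area, held 7.95 ± 0.51% and 5.77 ± 0.72%. The highest position of the 5′ interior was +117, that of the 25S-proximal part was +222, and that of the 3′ interior was its last nucleotide (chrXII:464349, 31 nt before 25S). All of these are A.

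**Figure D1:**
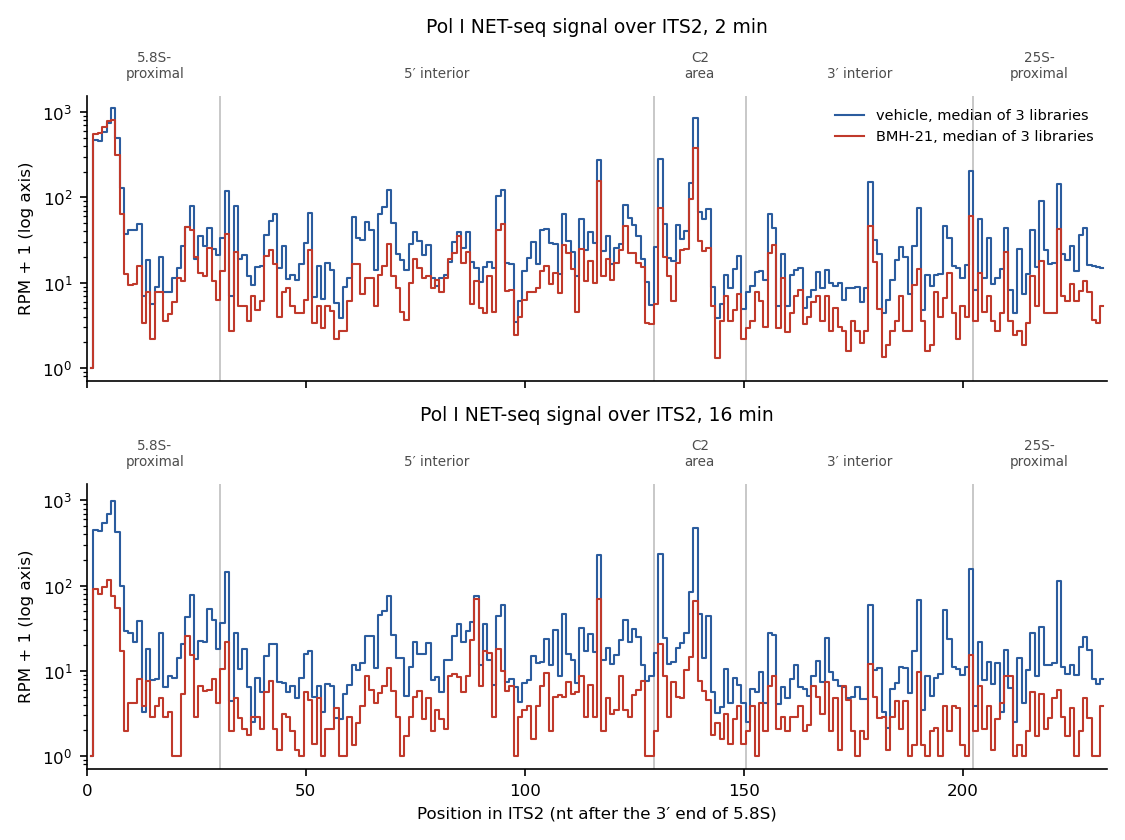
Median RPM plus 1 of 3 libraries (log axis) at each position of ITS2 for vehicle and BMH-21 at 2 min (top) and 16 min (bottom), with the 5 parts marked by vertical lines. At 2 min the BMH-21 line meets or passes the vehicle line at +2 to +5 and runs below it over most other positions, while at 16 min it runs below it at +2 to +8 too.

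The share of the 35S signal in the first nucleotides after 5.8S overlapped between vehicle and BMH-21 at 2 min and lay far below vehicle in every BMH-21 library at 16 min. At 2 min the 5.8S-proximal part held 0.368, 0.459 and 0.504% of the 35S signal in vehicle replicates 1 to 3 and 0.596, 0.322 and 0.403% in BMH-21 replicates 1 to 3. The groups overlapped, the difference of -0.05 ± 0.29 (log2, SE) was smaller than the spread between replicates (exact permutation test, two-sided, p = 1), and scaling by the median ratio of positions turned it to +0.20 and by the spacers to +1.27. At 16 min the shares were 0.421, 0.332 and 0.421% in vehicle and 0.0657, 0.0472 and 0.0653% with BMH-21. Here the groups were far apart, with a log2 difference of -2.73 ± 0.20 (exact permutation test, p = 0.1, the smallest that 3 against 3 libraries allow; adjusted p = 0.1 over 8 parts). With the spacer scaling this difference was -0.22 (exact permutation test, p = 0.4). Over both times the difference of -1.39 did not pass the threshold (exact permutation test within time, p = 0.05, adjusted p = 0.055). The change of this difference from 2 to 16 min, -2.68, did not pass it either (exact permutation test, p = 0.085, adjusted p = 0.2).

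Within the first 10 nt the positions did not move alike at 2 min. Position +5, the shortest end of 6S pre-rRNA, carried 599, 748 and 879 RPM in vehicle and 1245, 647 and 784 RPM with BMH-21, and position +6 carried 906, 1102 and 1189 RPM against 1383, 664 and 817 RPM. At both, BMH-21 replicate 1 was above all vehicle libraries and replicate 2 below at least 2 of them. The log2 difference was +0.23 ± 0.27 at +5 (limma with Benjamini-Hochberg adjustment over all tested positions of the gene, adjusted p = 0.55), which turned to -0.04 without BMH-21 replicate 1, and -0.22 ± 0.28 at +6 (limma, adjusted p = 0.58), which was +0.01 without BMH-21 replicate 2 and +0.03 with median-ratio scaling. Further out the signal was lower. Position +7 carried 462, 492 and 526 RPM in vehicle and 428, 201 and 310 RPM with BMH-21, and the groups did not overlap (log2 -0.72 ± 0.27, limma, adjusted p = 0.089). Position +8 fell from 124 ± 15 to 67.7 ± 22.9 RPM (SD, n = 3; log2 -0.91 ± 0.25, limma, adjusted p = 0.038). That call was lost with median-ratio scaling (adjusted p = 0.15), with an unmoderated model (0.117) and without any 1 of the libraries except BMH-21 replicate 1 (0.0528 to 0.13). With the spacer scaling the differences were +1.10 at +6, +0.60 at +7 and +0.39 at +8.

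A split of this run chosen after its values were seen, and therefore not tested, shows the same order from the 5.8S end outward. Positions +2 to +4 summed to 1460 RPM in vehicle and 1914 RPM with BMH-21 at 2 min, a log2 difference of 0.38, while +6 to +8 summed to 1683 and 1336 RPM, a difference of -0.40. In RPM the groups overlapped at each of +2, +3 and +4 (limma, adjusted p = 0.258 to 0.292). BMH-21 replicate 1 was the highest library at each of them. As a share of the ITS2 signal, +2 to +4 was 11.6, 12.9 and 14.4% in vehicle against 25.4, 29.2 and 27.1% with BMH-21. On the same scale +6 to +8 was 15.1 ± 0.3% in vehicle and 18.5 ± 0.9% with BMH-21 (SD, n = 3). The 3 BMH-21 libraries lay above the 3 vehicle libraries in both stretches on this scale, also where the RPM was lower. At 16 min the same 3 positions held 18.3, 16.2 and 16.2% in vehicle and 17.5, 13.7 and 15.3% with BMH-21, which overlapped, and +6 to +8 held 17.2 ± 2.0% against 9.02 ± 2.27% (SD, n = 3).

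At 16 min every one of the 9 tested positions from +2 to +10 was lower with BMH-21. Position +5 went from 682, 437 and 692 RPM to 121, 87.2 and 116 RPM, and position +6 from 991, 745 and 1002 RPM to 74.2, 74.5 and 66.4 RPM. Both pairs of groups were fully apart. The fall was 2.46 ± 0.25 at +5 (log2, SE; limma, adjusted p = 0.002) and 3.64 ± 0.19 at +6 (limma, adjusted p = 5.9e-04). With BMH-21 the highest position of the run was therefore +5, not +6 as in vehicle. On the spacer scaling +5 had a difference of +0.03 at 16 min.

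**Figure D2:**
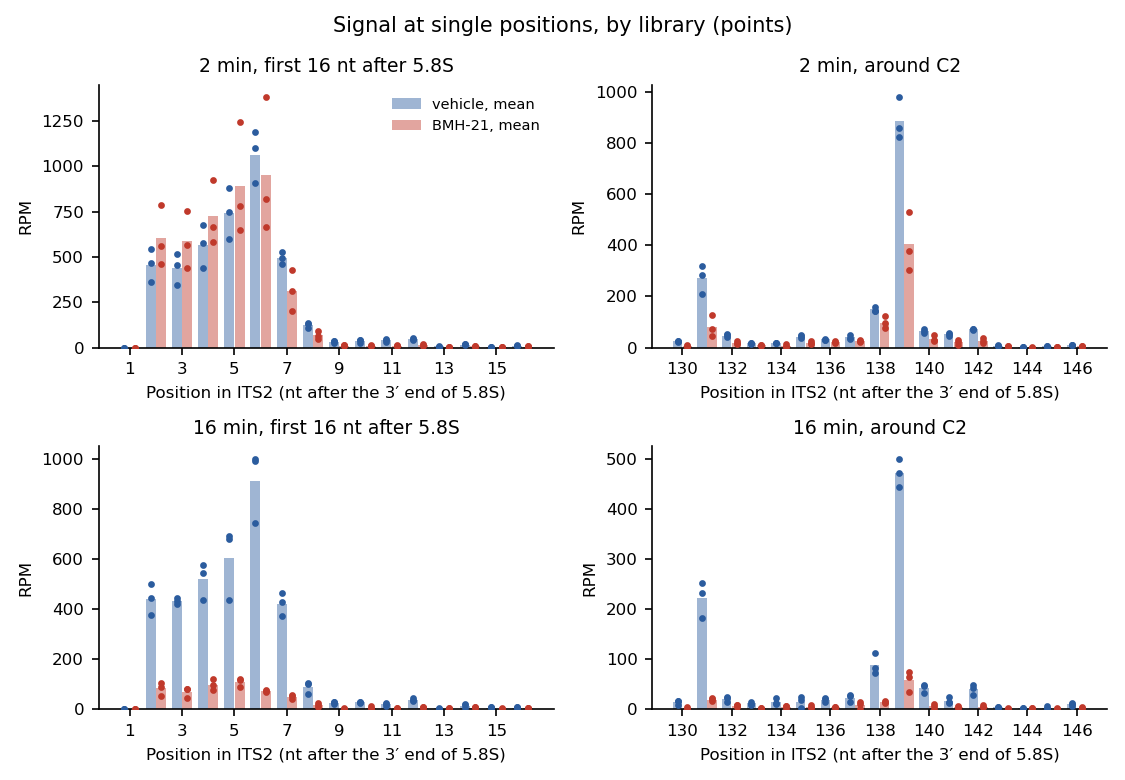
RPM at positions +1 to +16 (left) and +130 to +146 (right) at 2 min (top) and 16 min (bottom), with bars for the mean of 3 libraries and points for the libraries. At 2 min the BMH-21 bars are as tall as or taller than the vehicle bars from +2 to +5 and shorter from +6 on, and at +139 they are at 403 against 886 RPM. At 16 min they are the shorter ones at every position from +2 to +8.

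Read against the rest of ITS2, the 5.8S-proximal part gained at 2 min and lost at 16 min. Its mean RPM per position divided by that of the interior (the 5′ and the 3′ interior, without the C2 area) was 4.79, 5.19 and 5.96 in vehicle and 12.6, 14.1 and 12.5 with BMH-21 at 2 min. At 16 min the ratio was 8.61, 5.84 and 6.56 in vehicle and 4.72, 3.82 and 3.45 with BMH-21. The groups did not overlap at either time and lay on opposite sides, with log2 differences of +1.30 ± 0.11 and -0.80 ± 0.21 (exact permutation tests, p = 0.1 each, adjusted p = 0.129 over 9 ratios). The change between the 2 times was -2.11 (exact permutation of time within treatment, p = 0.01, adjusted p = 0.0338). That test was added after the opposite directions had been seen. It assumes that vehicle and BMH-21 cultures each stay the same between the times. The vehicle ratio itself, however, went from 5.31 ± 0.59 to 7.01 ± 1.44 (SD, n = 3). The times were also separate experiments, so that a difference between times is one between experiments too. In shares of the ITS2 signal, the 5.8S-proximal part was 39.5 ± 2.2% in vehicle and 61.9 ± 1.2% with BMH-21 at 2 min, and 47.5 ± 4.4% and 37.96 ± 3.19% at 16 min.

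Against the mature 5.8S sequence beside it, the same part was lower with BMH-21. The ratio of mean RPM per position was 0.507, 0.594 and 0.621 in vehicle and 0.555, 0.356 and 0.418 with BMH-21 at 2 min, which overlapped, and 0.576, 0.469 and 0.5005 against 0.0891, 0.0625 and 0.0822 at 16 min, which did not. Over both times the log2 difference was -1.56 (exact permutation test within time, p = 0.01, adjusted p = 0.0225), of which -0.39 ± 0.21 fell at 2 min and -2.74 ± 0.18 at 16 min. The 5.8S region itself, which mature rRNA in the pull-down would also fill, held 4.05 ± 0.22% of the 35S signal in vehicle and 5.16 ± 0.45% with BMH-21 at 2 min, and 4.00 ± 0.37% and 4.02 ± 0.15% at 16 min (SD, n = 3). Its last 10 nt held 0.835 ± 0.085% and 1.30 ± 0.23% at 2 min, and 0.852 ± 0.213% and 0.927 ± 0.170% at 16 min. At 16 min the signal at the mature 3′ end thus overlapped that of vehicle, and the signal just after it did not.

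The starts of the other spacers that follow a mature rRNA were compared in the same way. Relative to the first 30 nt of ITS1, which follow 18S, the 5.8S-proximal part stood at 9.34 ± 0.98 in vehicle and 24.6 ± 1.6 with BMH-21 at 2 min, and at 15.9 ± 3.3 and 8.84 ± 2.90 at 16 min, where the groups overlapped. Relative to the first 30 nt of ETS2, which follow 25S, it stood at 1.15 ± 0.23 and 2.06 ± 0.30 at 2 min, and at 1.81 ± 0.66 and 1.11 ± 0.29 at 16 min, again with overlap (SD, n = 3). The effects at the 2 times differed by -2.27 for ITS1 (exact permutation test, p = 0.005, the smallest possible, adjusted p = 0.0338). For ETS2 they differed by -1.52 (exact permutation test, p = 0.015, adjusted p = 0.0338). The limits on this test given above apply to both. For ITS1 the vehicle ratio itself went from 9.34 ± 0.98 to 15.9 ± 3.3 without overlap. The steady vehicle that the test assumes was thus not seen there, and its p is no measure of an effect of time on BMH-21. ITS1 and ETS2 supplied only the reference here, and their own shares were lower with BMH-21 at both times.

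The rest of the first 30 nt, from +11 to +30, behaved unlike the run before it at 2 min. It held 0.0417, 0.0537 and 0.0490% of the 35S signal in vehicle and 0.0310, 0.0161 and 0.0248% with BMH-21 at 2 min, and 0.0439, 0.0425 and 0.0463% against 0.00982, 0.00734 and 0.0116% at 16 min. No BMH-21 library reached a vehicle library at either time, with log2 differences of -1.05 ± 0.30 and -2.23 ± 0.20 and of -1.64 over both times (exact permutation test within time, p = 0.005, the smallest possible, adjusted p = 0.00667). With the spacer scaling these became +0.27, +0.27 and +0.27. The ratio of +1 to +10 over +11 to +30 was 16.4 ± 1.9 in vehicle and 34.98 ± 3.87 with BMH-21 at 2 min, and 15.7 ± 1.9 and 10.5 ± 1.1 at 16 min (SD, n = 3). In both cases the groups were apart, in opposite directions, and the difference between the times did not pass the threshold (exact permutation test, p = 0.075, adjusted p = 0.129).

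No raised end was seen at +30, where the Rrp6-dependent intermediate ends. Position +30 carried 20.1, 18.4 and 20.2 RPM in vehicle and 9.16, 5.23 and 4.27 RPM with BMH-21 at 2 min, and it fell by 1.57 ± 0.25 on the log2 scale (limma, adjusted p = 0.0104). At 16 min it carried 17.3, 14.7 and 25.4 RPM against 3.18, 2.09 and 9.48 RPM, a fall of 1.93 ± 0.47 (limma, adjusted p = 0.0468). The call at 16 min was lost in 10 of 16 alternatives, among them edgeR (adjusted p = 0.12), a pseudocount of 0.1 (0.0928), an unmoderated model (0.177), median-ratio scaling (0.0566) and leaving out any 1 library except BMH-21 replicate 3 (0.0700 to 0.153), and the spacer scaling turned the value to +0.26. A stronger end lay at +32, an A named here after its values were seen, with 101, 117 and 117 RPM in vehicle and 64.5, 28.5 and 36.7 RPM with BMH-21 at 2 min. Position +23, a U that is not among the positions named by rule, was an exception among the higher ends of this stretch. At 16 min it carried 29.3, 44.1 and 42.3 RPM in vehicle and 32.2, 19.7 and 24.7 RPM with BMH-21. These overlapped (log2 -0.58 ± 0.26, limma, adjusted p = 0.254), and it was 1 of 2 positions that joined the 10 highest with BMH-21 at that time. At 2 min it overlapped too (log2 -0.10 ± 0.18, limma, adjusted p = 0.71), as did +25 (-0.08 ± 0.27, limma, adjusted p = 0.85). All BMH-21 libraries lay below vehicle at 16 of the 20 positions from +11 to +30 at 2 min. Position +21 carried 10.4, 24.8 and 13.1 RPM in vehicle at 16 min and had reads in only 1 BMH-21 library, at 0.949 RPM (limma, adjusted p = 0.0025).

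The 5′ interior held the largest share of the interior signal and, in summed share, lost the least of it by 16 min. By the median of its positions at 16 min it did not, at -1.82 against -1.54 in the 3′ interior and -1.73 in the C2 area (log2). It held 0.286, 0.329 and 0.313% of the 35S signal in vehicle and 0.186, 0.0938 and 0.128% with BMH-21 at 2 min, and 0.179, 0.213 and 0.243% against 0.0534, 0.0509 and 0.0777% at 16 min. The groups did not overlap at either time, and the log2 difference was -1.24 ± 0.29 at 2 min, -1.82 ± 0.23 at 16 min and -1.53 over both times (exact permutation test within time, p = 0.005, adjusted p = 0.00667), which the spacer scaling turned to +0.08, +0.69 and +0.38. Its highest position, +117, fell from 270 ± 27 to 166 ± 47 RPM at 2 min (SD, n = 3; log2 -0.73 ± 0.22, limma, adjusted p = 0.0472) and from 219 ± 58 to 75.5 ± 32.5 RPM at 16 min (log2 -1.57 ± 0.36, limma, adjusted p = 0.0376), with positive values on the spacer scaling of 0.58 and 0.91, of which the latter was called higher (adjusted p = 0.0193). The call at 2 min was lost in 10 of 16 alternatives, with adjusted p of 0.0598 at a pseudocount of 0.1, 0.124 without moderation, 0.215 with median-ratio scaling and 0.0736 to 0.165 without any 1 library except BMH-21 replicate 1. That at 16 min was lost in 6, with 0.0706 at a pseudocount of 0.1, 0.148 without moderation and 0.0933 to 0.126 without vehicle replicate 1 or 3 or BMH-21 replicate 1 or 2. Position +89 was the highest of the 5′ interior with BMH-21 at 16 min, yet it varied most between replicates, with 13.9, 263 and 74.5 RPM in vehicle and 31.8, 95.2 and 69.2 RPM with BMH-21. Its log2 difference of -0.14 ± 1.02 (limma, adjusted p = 0.958) became +0.85 without vehicle replicate 2.

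The C2 area carried 1 dominant end, which was lower with BMH-21 at both times. The area held 0.162, 0.180 and 0.194% of the 35S signal in vehicle and 0.106, 0.0585 and 0.0742% with BMH-21 at 2 min, and 0.0934, 0.104 and 0.114% against 0.0173, 0.00927 and 0.0178% at 16 min. No BMH-21 library overlapped the vehicle libraries, with log2 differences of -1.21 ± 0.26, -2.86 ± 0.32 and -2.03 over both times (exact permutation test within time, p = 0.005, adjusted p = 0.00667). On the spacer scaling the 2-min value was +0.11 and the value over both times was -0.12 (exact permutation test, p = 0.325).

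Position +139 carried 823, 858 and 978 RPM in vehicle and 528, 302 and 378 RPM with BMH-21 at 2 min. At 16 min it carried 443, 501 and 473 RPM against 74.2, 34.3 and 64.5 RPM. It fell by 1.17 ± 0.22 at 2 min (log2, SE; limma, adjusted p = 0.0137; +0.15 on the spacer scaling) and by 3.08 ± 0.30 at 16 min (limma, adjusted p = 0.0018), with no overlap at either time. Its neighbour +140 carried 65.2 ± 8.5 RPM in vehicle and 34.1 ± 12.1 RPM with BMH-21 at 2 min (SD, n = 3). Position +131, a G that was chosen after its values were seen, went from 270 ± 57 to 81.4 ± 40.4 RPM at 2 min and from 222 ± 37 to 18.8 ± 3.4 RPM at 16 min, and it was 1 of 2 positions that left the 10 highest with BMH-21 at 16 min.

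Relative to the interior, the C2 area overlapped vehicle at 2 min and was lower at 16 min. The ratio was 3.00, 2.92 and 3.28 in vehicle and 3.21, 3.66 and 3.29 with BMH-21 at 2 min, which overlapped (log2 +0.14 ± 0.08, exact permutation test, p = 0.2). At 16 min it was 2.73, 2.63 and 2.53 against 1.78, 1.07 and 1.34. The groups were apart there, by -0.94 ± 0.21 (exact permutation test, p = 0.1, adjusted p = 0.129), while the value over both times of -0.40 did not pass the threshold (p = 0.095 by the exact permutation test, adjusted p = 0.171).

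The 2 parts nearest 25S lost the most at 2 min. The 3′ interior held 0.101, 0.116 and 0.112% of the 35S signal in vehicle and 0.0516, 0.0212 and 0.0336% with BMH-21 at 2 min, a log2 difference of -1.72 ± 0.38, and 0.0734 ± 0.0061% against 0.0152 ± 0.0035% at 16 min (SD, n = 3), a difference of -2.29 ± 0.22. The 25S-proximal part held 0.0685, 0.0793 and 0.0815% in vehicle and 0.0319, 0.0126 and 0.0203% with BMH-21 at 2 min, a difference of -1.92 ± 0.40, and 0.0447, 0.0381 and 0.0476% against 0.00625, 0.00618 and 0.00892% at 16 min, a difference of -2.63 ± 0.20. The groups did not overlap in either part at either time. Over both times the differences were -2.01 and -2.27 (exact permutation tests within time, p = 0.005 each, adjusted p = 0.00667), and on the spacer scaling that of the 3′ interior was -0.10, with +0.21 at 16 min.

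Within single libraries the 3′ interior was also lower relative to the 5′ interior, and the 25S-proximal part relative to both. The fall was not steady along ITS2. At 2 min stretches of 20 nt changed by -1.60 and -1.71 from +41 to +80 and by -0.991 and -0.995 from +81 to +120 (log2). At 16 min the median change of single positions was -1.54 in the 3′ interior and -1.82 in the 5′ interior. The ratio of the 3′ to the 5′ interior was 0.669, 0.669 and 0.684 in vehicle and 0.528, 0.430 and 0.498 with BMH-21 at 2 min, and 0.720, 0.652 and 0.624 against 0.596, 0.419 and 0.435 at 16 min. The groups were apart at both times, with the same log2 difference of -0.48 at 2 and at 16 min (exact permutation test within time over both, p = 0.005, adjusted p = 0.015). The ratio of the 25S-proximal part to the interior was 0.918 ± 0.040 in vehicle and 0.619 ± 0.064 with BMH-21 at 2 min, and 0.776 ± 0.125 and 0.473 ± 0.026 at 16 min (SD, n = 3), with a difference over both times of -0.64 (exact permutation test, p = 0.005, adjusted p = 0.015).

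Single ends of these parts followed. The last nucleotide of the 3′ interior fell from 193 ± 28 to 54.2 ± 20.4 RPM at 2 min and from 153 ± 8 to 12.8 ± 5.4 RPM at 16 min (SD, n = 3; log2 -1.88 ± 0.30 and -3.57 ± 0.33, limma, adjusted p = 0.0104 and 0.0015). Position +222 carried 98.1, 143 and 147 RPM in vehicle and 57.6, 19.2 and 41.8 RPM with BMH-21 at 2 min, and 113, 86.8 and 128 RPM against 4.95, 2.47 and 10.4 RPM at 16 min, where its fall of 4.14 ± 0.44 was the largest of any called position in ITS2 (log2, limma, adjusted p = 0.0022). The largest falls at 2 min were at +187, +213 and +199, of 2.68 ± 0.36, 2.64 ± 0.54 and 2.49 ± 0.32 (log2, limma, adjusted p = 0.009, 0.0174 and 0.009), from vehicle means of 19.8, 23.3 and 13.6 RPM. Position +196 fell by 4.13 ± 0.63 at 16 min (limma, adjusted p = 0.0082), a value that depends on the pseudocount because 1 BMH-21 library had no read there. Its call was lost with a pseudocount of 0.1 (limma, adjusted p = 0.101) and without moderation (0.0823). At +210, the highest 25S-proximal position with BMH-21 at 16 min, the levels were 16.9, 16.5 and 13.1 RPM in vehicle and 7.77, 0 and 15.2 RPM with BMH-21, which overlapped.

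**Figure D3:**
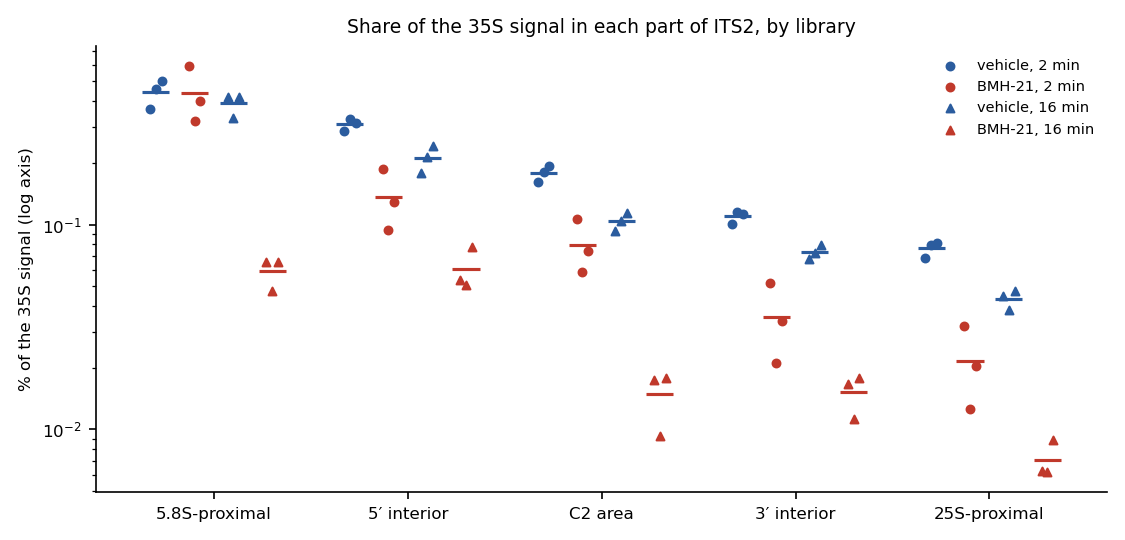
Percent of the 35S signal (log axis) in each of the 5 parts of ITS2, with a point for each library and a line at the mean of 3. The vehicle and BMH-21 points overlap only in the 5.8S-proximal part at 2 min (on the 35S scaling shown), and the gap at 2 min widens from the 5′ interior (-1.24 on the log2 scale) to the 25S-proximal part (-1.92).

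Counted over single positions on the 35S scaling, the change in ITS2 was one-sided at both times. On the spacer scaling it was not, with 19 lower and 15 higher at 2 min and 18 lower and 25 higher at 16 min. Over the whole gene that scaling gave 157 lower and 3356 higher of 6743 tested positions at 2 min. At 16 min it gave 211 lower and 5394 higher of 6696, so that ITS2 was raised less often than the gene at both times. At 2 min 173 of 231 tested positions were lower with BMH-21 and 0 higher (limma, adjusted p under 0.05), where 23.4% of the tested positions of the whole gene were lower and 3.56% higher. At unadjusted p under 0.05 it was 201 lower and 0 higher, beside 34% and 6.66%, and edgeR called 153 lower and 0 higher, beside 21.9% and 5.22%. The share that was lower was smallest next to 5.8S and largest next to 25S, though it did not grow at each step. It went from 3 of 9 at +1 to +10 and 14 of 20 at +11 to +30, through 71 of 99 in the 5′ interior and 17 of 21 in the C2 area, to 40 of 52 in the 3′ interior and 28 of 30 in the 25S-proximal part. The median log2 change was -0.22 at +1 to +10, -1.11 at +11 to +30, -1.22 in the 5′ interior, -1.22 in the C2 area, -1.50 in the 3′ interior and -1.75 in the 25S-proximal part, beside -0.26 over all tested positions. The count rested on few libraries. Each of the 10 positions named by rule and called at 2 min lost its call without vehicle replicate 2, without vehicle replicate 3 and with an unmoderated model, and in 3 to 10 of 16 alternatives in all. The count was 0 without vehicle replicate 2 and 0 without vehicle replicate 3 (183 and 182 at unadjusted p under 0.05). In these 2 settings 1 position of the whole gene was called lower. It was 83 without vehicle replicate 1, 91 without BMH-21 replicate 3 and 209 without BMH-21 replicate 1. The whole gene then had 607, 658 and 1945 lower positions. All 3 BMH-21 libraries lay below all 3 vehicle libraries at 191 positions of ITS2 (82.3%), where 37.7% of all positions of the gene did, and above them at 0, where 10.3% did. The whole gene includes the mature rRNA regions, and the loss was not particular to ITS2. At 2 min the shares of ETS1, ITS1 and ETS2 changed by -1.68, -1.43 and -1.03, and that of ITS2 by -0.69, the least of the 4 spacers (log2). At 16 min they changed by -2.70, -2.12 and -2.21, and ITS2 by -2.40.

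At 16 min 104 of 230 tested positions were lower and 0 higher (limma, adjusted p under 0.05), beside 11.7% lower and 0.104% higher over the gene. At unadjusted p under 0.05 it was 153 lower and 0 higher, beside 19.4% and 2.45%, and edgeR called 58 lower and 0 higher, beside 8.59% and 0.268%. By the share of positions called lower, the first 10 nt were now at the other end of the order, with 9 of 9 lower and a median of -2.46. The counts were 12 of 20 at +11 to +30, 38 of 98 in the 5′ interior, 10 of 21 in the C2 area, 19 of 52 in the 3′ interior and 16 of 30 in the 25S-proximal part, with medians of -2.43, -1.82, -1.73, -1.54 and -2.09. The median over all tested positions was -0.06. The order of the medians depended on the pseudocount. At 0.1 they were -2.62 at +1 to +10, -2.77 at +11 to +30 and -3.19 in the 25S-proximal part. The shares called lower depended on the filter for low signal. With a mean of at least 10 RPM the first 10 nt stayed at 9 of 9. The parts after them, from +11 to +30 on, had 8 of 11, 28 of 42, 7 of 9, 6 of 8 and 5 of 7. These parts then lay closer to the first 10 nt, and their order changed. In summed shares the C2 area changed by -2.86 and +1 to +10 by -2.80 (log2). Groups without overlap were found at 140 positions (60.3%) with BMH-21 below, beside 20.6% over the gene, and at 0 with BMH-21 above, beside 6.93%. Leaving out 1 library gave 65 lower positions, without vehicle replicate 3, to 108, without BMH-21 replicate 3. The whole gene had 513 and 738 in these 2 settings. Of the 12 positions named by rule and called at this time, 4 kept their call in all 16 alternatives.

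**Figure D4:**
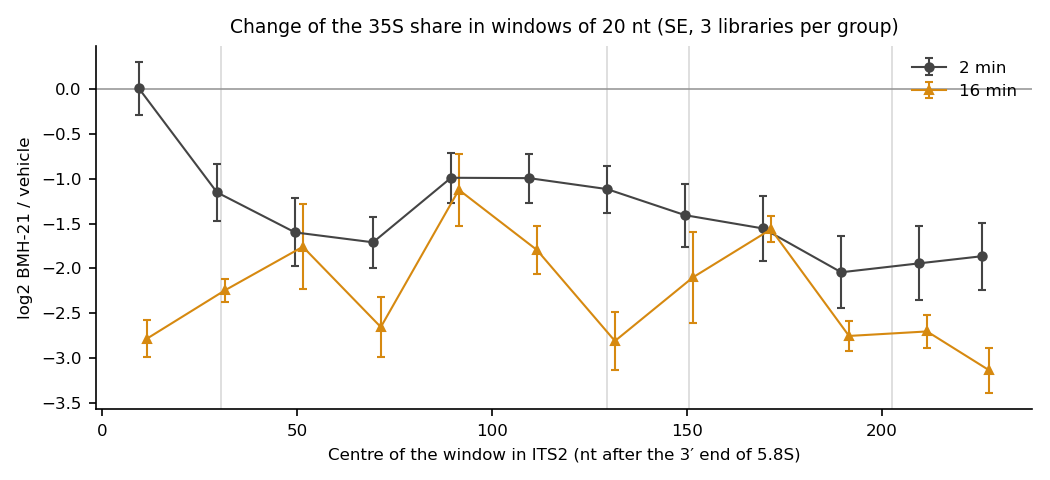
Log2 change of the 35S share (BMH-21 minus vehicle, with SE, 3 libraries per group) in windows of 20 nt (the last of 12 nt) against the centre of each window. At 2 min the first window lies at 0.00 and the windows from +181 on near -1.9 to -2.0, and at 16 min the first window lies at -2.78 and the smallest change, -1.13, lies at +81 to +100 (all on the 35S scaling, and +89 with its spread between replicates is in that window).

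Windows of 20 nt gave the course between the parts. At 2 min the log2 change was 0.00 ± 0.29 (SE) at +1 to +20, reached -1.71 ± 0.28 at +61 to +80, was smaller at +81 to +120 (-0.991 and -0.995) and reached -2.04 ± 0.40 at +181 to +200. At 16 min it was -2.78 ± 0.20 in the first window, -2.65 ± 0.33 at +61 to +80, -1.13 ± 0.40 at +81 to +100, -2.81 ± 0.32 at +121 to +140, around C2, and -3.13 ± 0.25 in the last. In 11 of the 12 windows at 2 min and in 12 of 12 at 16 min the BMH-21 libraries all lay below the vehicle libraries. Each of these values is a description, without a test.

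The interior of ITS2 lost less than the interior of the other spacers pooled together. Its mean RPM per position over that of ETS1, ITS1 and ETS2 more than 30 nt from a mature end was 0.855, 0.827 and 0.785 in vehicle and 0.865, 1.121 and 0.991 with BMH-21 at 2 min, and 0.702, 0.755 and 0.731 against 1.06, 1.24 and 1.13 at 16 min. The groups did not overlap, though by little at 2 min, and the log2 difference was +0.26 ± 0.11 at 2 min, +0.65 ± 0.07 at 16 min and +0.46 over both times (exact permutation test within time, p = 0.005, adjusted p = 0.015). The effects at the 2 times differed by 0.39 (exact permutation test, p = 0.015, adjusted p = 0.0338). That test assumes a steady vehicle, and the vehicle ratio itself went from 0.822 ± 0.035 to 0.730 ± 0.026 without overlap (SD, n = 3). It also compares libraries of separate experiments. ETS1 is the longest of the pooled spacers, with 700 positions against 361 in ITS1 and 211 in ETS2. Its share as a whole also changed most of these, by -1.68 at 2 min and -2.70 at 16 min (log2). No ratio to each spacer alone was taken.

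**Figure D5:**
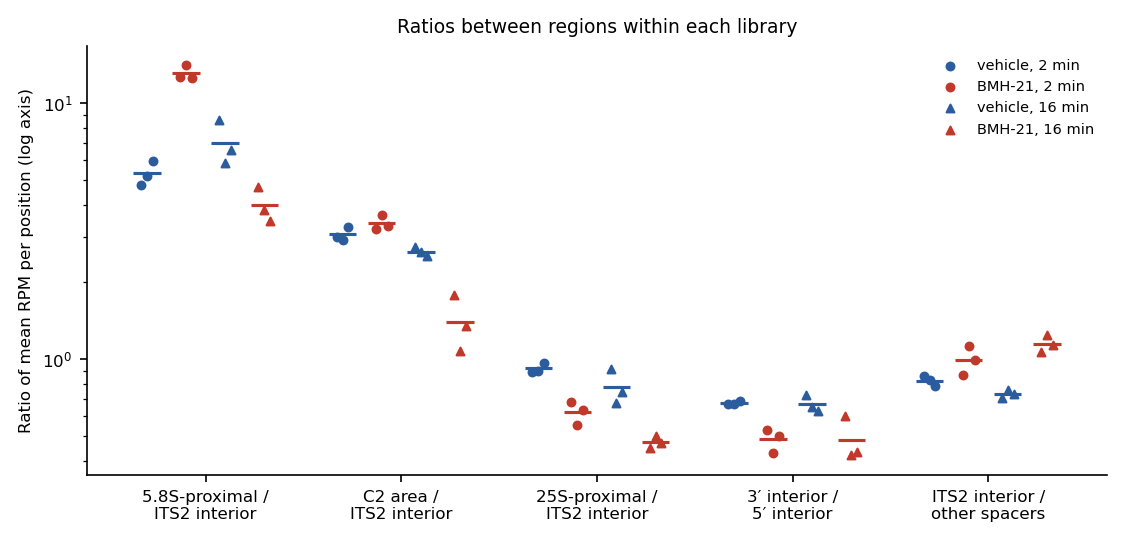
Ratios of mean RPM per position between regions of the same library (log axis), with a point for each of 12 libraries and a line at the mean of 3. The 5.8S-proximal ratio stands above vehicle at 2 min (13.1 against 5.31) and below it at 16 min (4.00 against 7.01), the C2 ratio is lower only at 16 min, and the last 3 ratios keep their direction at both times.

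The study looked at the bases around the most occupied spacer positions to ask about elongation, and the interior of ITS2 (here with the C2 area) allowed a look apart from mature rRNA ends. In vehicle at 2 min A was the last nucleotide of 39.7 ± 0.3% of the interior signal, although it makes up 23.3% of the positions, and U of 25.4 ± 0.5%, although it makes up 39.0% (SD, n = 3). The A share rests in part on few strong ends. Position +139 in the C2 area alone carried 886 RPM, 7.95% of the signal of all ITS2. Whether A is preferred apart from such ends was not tested. With BMH-21 the U share was higher, at 28.1, 29.9 and 28.5% against 26.0, 24.98 and 25.2% in vehicle at 2 min and 26.2, 26.5 and 30.6% against 25.6, 21.7 and 26.1% at 16 min. The groups stood apart at both times, narrowly at 16 min, by 3.39 percentage points over both (exact permutation test within time, p = 0.005, adjusted p = 0.03 over 6 measures). Without the C2 area the difference was 2.11 points and did not pass (exact permutation test, p = 0.085). Over all of ITS2 it was 4.02 points and did not pass either (exact permutation test, p = 0.085), with -1.22 points at 16 min.

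The U content of the 10 nt ending at the last nucleotide also rose, from 37.0 ± 0.5 to 39.0 ± 0.6% at 2 min and from 38.2 ± 1.3 to 41.2 ± 2.4% at 16 min (SD, n = 3), by 2.46 points over both times (exact permutation test, p = 0.01, adjusted p = 0.03). The groups were apart at 2 min and overlapped at 16 min (exact permutation test, p = 0.2). Over all of ITS2 the difference over both times was 2.53 points and did not pass (exact permutation test, p = 0.05). The G content of the 30 nt downstream was 22.6 ± 0.2% and 22.4 ± 0.1% at 2 min and 23.6 ± 0.6% and 25.1 ± 0.8% at 16 min, where the groups overlapped at 2 min and were apart at 16 min. Its difference over both times of 0.67 points did not pass the threshold (exact permutation test, p = 0.15, adjusted p = 0.18). Over all of ITS2, mature-end parts included, the difference was 0.62 points, with p = 0.005 by the exact permutation test, the smallest possible.

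The rank order of positions within ITS2 was well kept at 2 min and less so at 16 min. Spearman's rho over all positions of ITS2, given as a description since neighbouring positions share a library, was 0.954 to 0.975 between vehicle libraries, 0.906 to 0.921 between BMH-21 libraries and 0.837 to 0.896 across the treatments at 2 min. At 16 min it was 0.691 to 0.898, 0.469 to 0.570 and 0.441 to 0.659. The number of ITS2 positions without a read moved with this, at 1 to 9 per library at 2 min and 1 to 51 at 16 min. Of the 10 highest positions 9 were shared between the treatments at 2 min, where the last nucleotide of the 3′ interior gave way to +138, and 8 at 16 min. The 18 positions in capitals above held 57.0 ± 2.0% of the ITS2 signal in vehicle and 72.8 ± 1.1% with BMH-21 at 2 min, and 61.6 ± 3.2% and 47.6 ± 2.9% at 16 min (SD, n = 3). The 7 of them at +2 to +8 made up the rise at 2 min, from 34.6 to 58.3%, while the other 11 went from 22.4 ± 0.3% to 14.6 ± 0.5%.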

How the data were processed

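Pol I NET-seq was measured in 12 libraries, 3 per treatment and time. The authors deposited, for each time, RPM per position, that is read ends scaled to the same total over the 35S gene in every library, with their own replicate summaries and comparison (means, ratios, p-values), which were not used. The submitters' processing notes name R 4.0.2, STAR 2.7.1a, cutadapt 1.12, bedtools 2.26.0, bcl2fastq 2.20.00, SAMtools 1.6 and build R64. The linker carried a molecular identifier, and whether reads were merged by it is not given in the sources used here. The files head vehicle columns wt and BMH-21 columns mut, and 0 columns of samples were left unmapped. The RPM values were whole multiples of 1 read at 99.9 to 100% of positions (tolerance 0.001 read). Depth was recovered from these steps, and intervals cover counting error only.

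Positions with a mean of at least 1 RPM were tested within each time on log2(RPM + 1) with limma 3.58.1 (R 4.3.3), with Benjamini-Hochberg adjustment over the gene at 0.05. A fold on this scale understates the change of low positions. The same tests on recovered reads used edgeR 4.0.16. The scripts were tested on simulated data. Shares, ratios and base shares were compared by exact permutation over libraries, two-sided, within a time (20 arrangements) or within each time over both (400), with Python 3.11.15. Positions named were the highest vehicle and BMH-21 median of each part, the 3 most lowered of those called (none was raised), and +5 to +8, +30 and +140. Members, windows and lists were chosen with earlier results of these data known. The alternatives were other pseudocounts, filters, scalings, part limits, a replicate block, an unmoderated model and leaving out each library.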

Additional observations from a re-analysis of the deposited data

Results flagged for a closer look

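These are 5 differences between the 2 treatment times, given as log2 values of the effect at 16 min minus the effect at 2 min. The ratio of the 5.8S-proximal part to the ITS2 interior changed by -2.11, with all BMH-21 libraries above vehicle at 2 min and below it at 16 min. The ratio of +1 to +10 over +11 to +30 did the same, by -1.66, and this difference did not pass the exact permutation test (p = 0.075, adjusted p = 0.129). The 5.8S-proximal part changed by -2.27 against the first 30 nt of ITS1 and by -1.52 against the first 30 nt of ETS2, with overlapping groups at 16 min in both cases. The ITS2 interior changed by 0.39 against the pooled interior of the other spacers, with BMH-21 above vehicle at both times. The 2 times were separate experiments, so that time and experiment cannot be told apart in any of these differences. Their cause was not tested.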

How the results depend on the processing

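The share of the 35S signal depends on the scaling, whereas ratios within a library do not. Scaled to the sum over the spacers, the log2 differences at 2 min, at 16 min and over both times were 0.62, 0.10 and 0.36 for ITS2, 0.27, 0.27 and 0.27 for +11 to +30, and 0.079, 0.69 and 0.38 for the 5′ interior. They were 1.27 at 2 min and 0.52 over both times for the 5.8S-proximal part, 0.53 over both times for +1 to +10, 0.11 at 2 min and -0.12 over both times for the C2 area, and 0.21 at 16 min and -0.10 over both times for the 3′ interior. The effect at 16 min against that at 2 min became 0.0035 for +11 to +30, 0.61 for both the 5′ and the 3′ interior and 0.48 for the 25S-proximal part. Positions reversed to 1.10 (+6), 0.60 (+7), 0.39 (+8), 0.58 (+117), 0.15 (+139) and 0.33 (+140) at 2 min and to 0.034 (+5), 0.26 (+30), 2.32 (+89), 0.91 (+117) and 0.026 (+210) at 16 min. The counts became 19 lower and 15 higher at 2 min and 18 lower and 25 higher at 16 min. Over the whole gene they became 157 lower and 3356 higher at 2 min and 211 lower and 5394 higher at 16 min. With median-ratio scaling the 2-min values were 0.20 for the 5.8S-proximal part and 0.030 for +6, and the lower count was 90. Scaled to the gene regions, +1 to +10 stood at -0.0071 at 2 min and the 5.8S-proximal part at -1.43 over both times, which passed.

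Proximal parts of 20 nt gave 0.0013 for the 5.8S-proximal part at 2 min and -2.02 for the time difference of +1 to +10 over the rest, which passed, and parts of 40 nt gave -1.40 for the 5.8S-proximal part over both times, which passed. A C2 area of +120 to +160 turned the time difference of the 3′ over the 5′ interior to -0.10, and leaving out the highest vehicle position of each part turned that of the 25S-proximal ratio to 0.13. Over all of ITS2, base shares differed by 2.15 (A last) and 0.96 (G last) at 16 min. C last differed by 7.33 at 2 min and 2.72 over both times. U last differed by -1.22 at 16 min and by 4.02 over both times, which did not pass (exact permutation test, p = 0.085). U in the last 10 nt differed by 2.53 over both times, which did not pass either (exact permutation test, p = 0.05). G downstream differed by 0.23 at 2 min and 0.62 over both times, which passed (exact permutation test, p = 0.005). Without the C2 area base shares differed by 1.24 (A last) and 0.71 (G last) at 16 min. Over both times they differed by -1.72 (C last) and 2.11 (U last). G downstream differed there by 0.072 at 2 min, which was 0.094 with capped weights.

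With a mean of at least 10 RPM, 105 of 138 tested positions were lower at 2 min (76.1%, against 74.9% with the main filter). At 16 min 63 of 86 were (73.3%, against 45.2%). The unmoderated model gave 18 of 231 at 2 min and 38 of 230 at 16 min. A pseudocount of 0.1 and edgeR each gave 58 of 230 at 16 min. Over the whole gene the 10 RPM filter gave 1234 of 6075 at 2 min and 513 of 5807 at 16 min. The unmoderated model gave 222 of 6746 and 276 of 6707 there. At 16 min the pseudocount gave 476 and edgeR 576. The replicate numbers share only a number, since same-numbered libraries did not all deviate together (correlations over ITS2 of -0.08 to 0.12). The replicate block gave 96 lower positions at 2 min against 173 and 103 at 16 min against 104, and the 5.8S-proximal part over 5.8S stayed at -1.56 but did not pass, with p = 0.0625 by the exact permutation test. Positions +8, +117, +140 and +222 at 2 min and +140 at 16 min lost their call with it. With the block the smallest p is 0.25 within a time.

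Leaving out 1 library at a time gave 0 to 209 lower positions at 2 min and 65 to 108 at 16 min, -0.29 to 0.16 for the 5.8S-proximal part at 2 min and -1.51 to -1.29 over both times, and -0.20 to 0.24 and -1.50 to -1.28 for +1 to +10. The time differences ranged from -0.16 to 0.095 for the 3′ over the 5′ interior and from -1.76 to -1.58 for +1 to +10 over +11 to +30, and the ETS2 ratio over both times from -0.089 to 0.19. Base shares ranged from -2.66 to 1.64 at 16 min and -1.53 to 0.62 over both times (A last), -1.15 to -0.41 over both times (C last), and -3.63 to 0.64 at 16 min and -3.16 to -1.03 over both times (G last). Position +5 ranged from -0.041 to 0.43 and +6 from -0.52 to 0.0060 at 2 min, and +89 from -1.22 to 0.85 at 16 min. The cause of these changes was not tested. At 16 min, 25 to 51 ITS2 positions had no read in the BMH-21 libraries, which limits single positions there.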
